A study of Mus musculus with 8 samples.

Results

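The 5 genes described here, Nr2f1, Nr2f2, Thrb, Rora and Rorb, encode nuclear receptors, transcription factors that bind DNA directly. They were taken by gene symbol from the deposited gene table, in which they are 5 of 14166 genes. The rule is the symbol alone, but the set was put together with earlier results of these data known. The data are single-nucleus RNA counts from the dorsal telencephalon, the region that forms the cerebral cortex, of C57BL/6J mouse embryos at stage E15.5 of embryonic development. There were 4 wildtype samples and 4 samples of the genotype Pantr2-/-, called knockout below. Pantr2 is a long noncoding RNA gene, both alleles of which are mutant in the knockout samples, and no treatment was applied to either group. The counts of Pantr2 itself were not analysed here, so the genotype rests on the labels. The labels do not say whether the replicates of a genotype came from separate litters or embryos, so p-values measure only the spread between these samples, which may be technical.

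Nuclear receptors recognise variants of the half-site AGGTCA, alone or repeated, and many change partners and activity when they bind a hormone or other small ligand. Nr2f1 and Nr2f2, also called COUP-TFI and COUP-TFII, are orphan receptors that mostly repress transcription, and in the cortex Nr2f1 is known for setting the size of caudal sensory areas against the frontal motor area. Thrb is a receptor of thyroid hormone that acts with a retinoid X receptor, while Rora and Rorb bind a single half-site and drive clock genes such as Arntl. Rorb is a classic mark of the input layer of sensory cortex, and Rora is best known from cerebellum and thalamus.

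The samples held 7280 to 10921 nuclei and 20446698 to 34083796 UMIs each, with a median of 2570 to 2905 UMIs per nucleus. Between 8 and 30 barcodes were shared by any 2 of the 8 samples. The nuclei carry 7 deposited cluster numbers. By marker genes at their highest level there, cluster 1 was upper-layer neuron-like (4 of 6 markers), clusters 2 and 3 were deep-layer neuron-like (4 of 10 each), cluster 4 was apical progenitor-like (11 of 11) and cluster 5 was intermediate progenitor-like (5 of 6). Clusters 6 and 7 are left unnamed. Levels are in CPM, the UMIs of a gene scaled to 1 common total for every sample and cluster, and n is 4 samples per genotype.

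In the positions of the deposited table, which are taken as those of GRCm39, Nr2f1 lies on chromosome 13 from 78337092 to 78347876, a span of 10.8 kb. Nr2f2 lies on chromosome 7 from 70001692 to 70016483, a span of 14.8 kb. Thrb lies on chromosome 14 from 4431611 to 4809435 and spans 377.8 kb, Rora on chromosome 9 from 68561068 to 69295528 and spans 734.5 kb, and Rorb on chromosome 19 from 18907969 to 19088560 and spans 180.6 kb. Nuclei hold much unspliced RNA, and levels of genes of such different length are not compared with each other below. Each of the short genes overlaps a noncoding gene on the opposite strand. A830082K12Rik shares 1741 bases with Nr2f1, and B130024G19Rik shares 1826 bases with Nr2f2.

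The sequences before the start sites are shown because these receptors are themselves readers of AGGTCA and because Nr2f1 and Nr2f2 each overlap, at their start, the start of the noncoding gene on the other strand. Each is 100 bases of RefSeq sequence in GRCm38.p6 on the gene's own strand, and capitals mark AGGTCA or TATAA on either strand. The stretches are chr13:78198874-78198973 (minus strand) for Nr2f1, chr7:70366747-70366846 (minus) for Nr2f2, chr14:17660729-17660828 (plus) for Thrb, chr9:68653686-68653785 (plus) for Rora and chr19:19111197-19111296 (minus) for Rorb. All end 1 base before the start except that of Thrb, which was moved upstream to hold its half-site.
Nr2f1: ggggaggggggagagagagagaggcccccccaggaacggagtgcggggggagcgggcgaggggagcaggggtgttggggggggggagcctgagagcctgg
Nr2f2: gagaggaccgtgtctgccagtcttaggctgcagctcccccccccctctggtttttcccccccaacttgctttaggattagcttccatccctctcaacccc
Thrb: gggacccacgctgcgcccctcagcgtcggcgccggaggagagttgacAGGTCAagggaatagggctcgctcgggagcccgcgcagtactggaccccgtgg
Rora: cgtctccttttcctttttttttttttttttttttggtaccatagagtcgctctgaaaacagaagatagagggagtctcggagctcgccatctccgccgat
Rorb: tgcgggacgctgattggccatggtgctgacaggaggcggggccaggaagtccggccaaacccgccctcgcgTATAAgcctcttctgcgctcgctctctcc
Over the 8 promoters of 300 bases listed for the 5 genes, AGGTCA occurred in 1, that of Thrb at position -184, against 16.3% of 32851 promoters of the same length. The pairs AGGTCANAGGTCA and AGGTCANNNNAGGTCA, each of which contains AGGTCA, occurred in none of the 8 and in 0.0396% and 0.0152% of all promoters. TATAA occurred in 2 of the 8, in the stretch of Rorb shown at position -29 and in the second promoter of Thrb, against 24.9% of all promoters. A match describes letters only.

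Nr2f1 was present in every cluster, highest in the progenitor-like clusters 4 and 5 and in cluster 6, and about the same in both genotypes. In cluster 5 the wildtype samples 1 to 4 held 254, 267, 244 and 223 CPM and the knockout samples 273, 247, 240 and 169 CPM. The groups overlapped, and knockout sample 4 lay below all others. In cluster 4 the wildtype samples held 241, 212, 244 and 207 CPM, and the knockout samples 266, 261, 244 and 182 CPM. The wildtype means fell in 3 steps without overlap between them, with clusters 5, 4 and 6 at 247 ± 18.7, 226 ± 19.3 and 218 ± 20.2 CPM (SD), clusters 1 and 7 at 139 ± 12.6 and 133 ± 14.5 CPM, and the deep-layer-like clusters 3 and 2 at 98.9 ± 8.41 and 85.3 ± 15.8 CPM. Within each step neighbours overlapped. The fold changes of knockout over wildtype ran from -0.06 ± 0.12 in cluster 5 to 0.18 ± 0.09 in cluster 3 on the log2 scale (edgeR, ± SE), with adjusted p from 0.328 to 0.985 over the 8 fits, 1 of all nuclei and 1 of each cluster.

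Nr2f2 had its highest level in cluster 6. There the wildtype samples held 380, 412, 423 and 268 CPM, and the knockout samples 370, 545, 424 and 146 CPM. The means were 371 ± 71.2 and 371 ± 167 CPM, so that the knockout samples spread from the lowest to the highest of all 8. In the other clusters the wildtype means lay between 74.7 ± 18.9 CPM in cluster 2 and 192 ± 32.5 CPM in cluster 5, and every neighbouring pair in that order overlapped. In cluster 4 the wildtype samples held 184, 162, 164 and 102 CPM and the knockout samples 136, 149, 119 and 57.2 CPM. The fold change in cluster 4 was -0.36 ± 0.24 (adjusted p = 0.523), and it was below 0 in 6 of 7 clusters, but none of the 8 fits passed the threshold (adjusted p from 0.523 to 0.990). Without knockout sample 4 the change over all nuclei was -0.11 (adjusted p = 0.759).

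**Figure D1:**
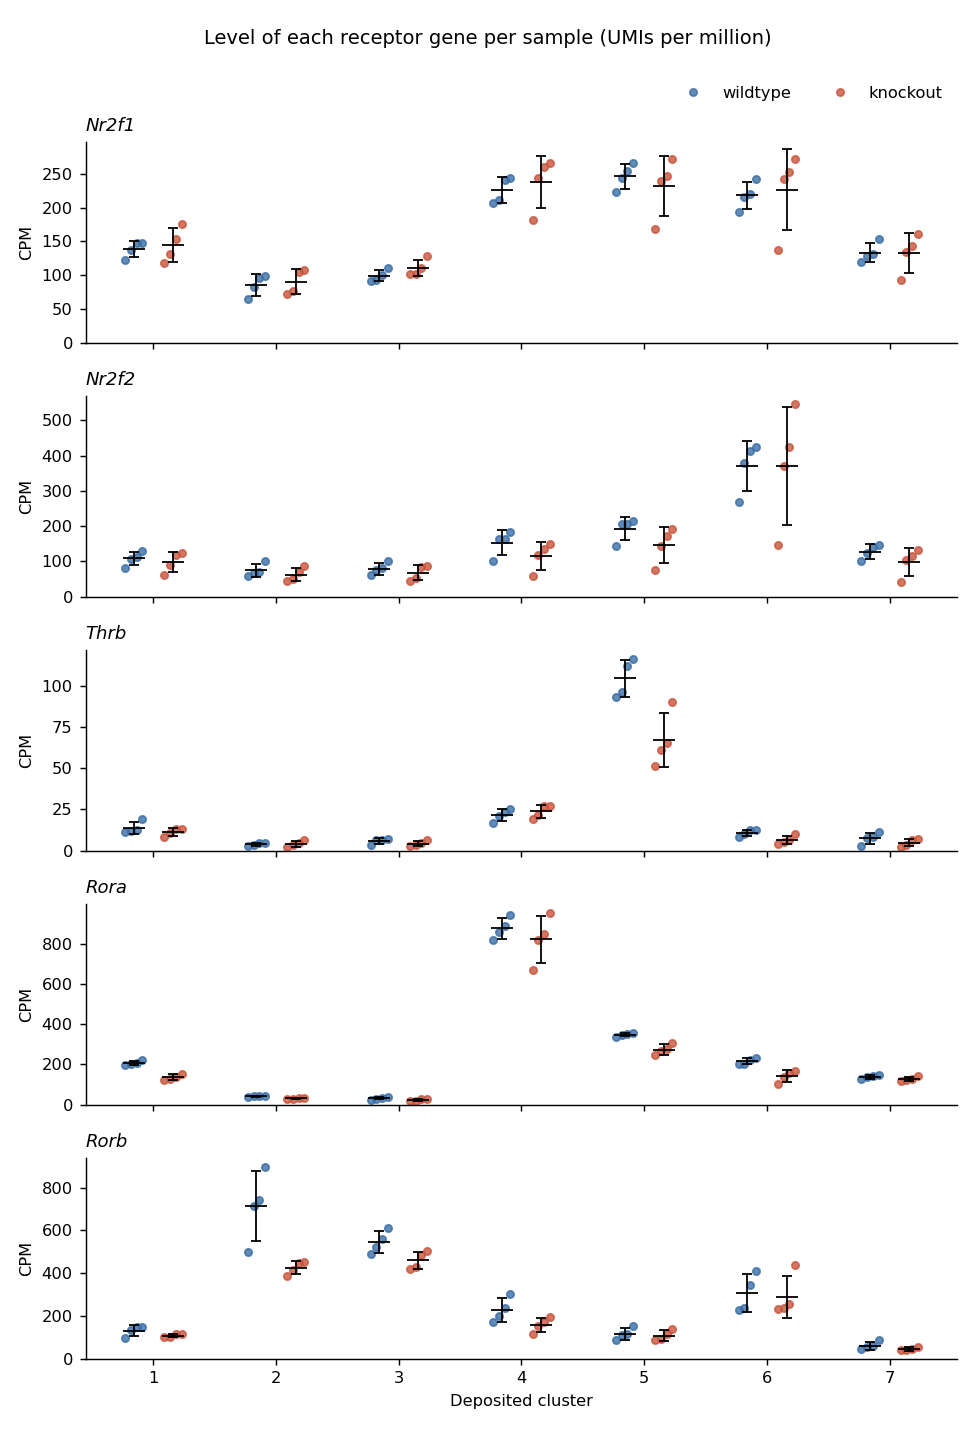
Level of the 5 receptor genes in CPM (vertical axis, a linear scale of its own per gene) in each deposited cluster, with 1 point per sample, wildtype in blue and knockout in red, and bars for the mean ± SD of 4 samples. Rora was highest in cluster 4 and Thrb in cluster 5, Rorb was highest in clusters 2 and 3, and Rora in cluster 1 and Rorb in cluster 2 show groups that do not overlap.

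The samples numbered 4 were the lowest for Nr2f2 in both genotypes. Wildtype sample 4 was the lowest wildtype sample in 7 of 7 clusters, and knockout sample 4 the lowest knockout sample in 7 of 7. For Nr2f1 they were lowest in 4 of 7 and 6 of 7 clusters. Across the 8 samples, the mean log2 levels of Nr2f1 and Nr2f2 correlated with Pearson's r = 0.80 (exact permutation p = 0.0180, adjusted over 10 relations 0.0599) and Spearman's rho = 0.57 (exact permutation p = 0.151, adjusted 0.378). Without the 2 samples farthest from the median of Nr2f1, knockout samples 1 and 4, the r was 0.60, and with each genotype's mean removed it was 0.90. Thrb and Rorb correlated with r = 0.87 (exact permutation p = 0.00238, adjusted 0.0238) and rho = 0.81 (exact permutation p = 0.0218, adjusted 0.0726). Their r was 0.71 without the 2 samples farthest from the median of Thrb, wildtype sample 1 and knockout sample 3. It was 0.80 with the genotype means removed. Which parts of the dorsal telencephalon each dissection took is not recorded in the labels, and its part in these differences was not tested.

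**Figure D2:**
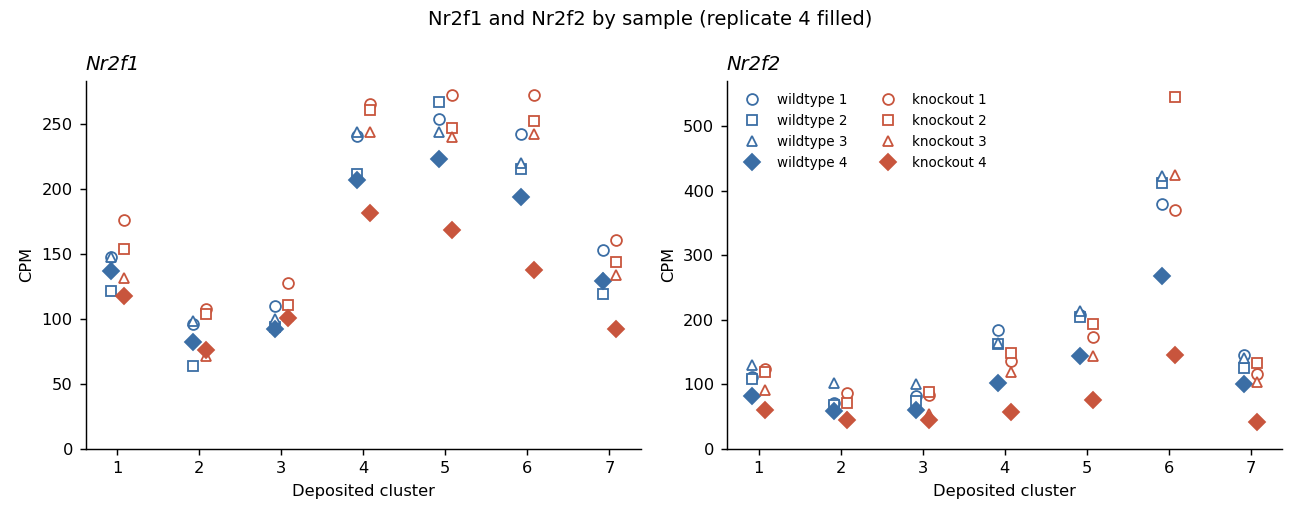
Nr2f1 and Nr2f2 in CPM (vertical axes) by deposited cluster and sample, with blue for wildtype, red for knockout, and filled diamonds for the samples numbered 4. The filled symbols are the lowest of their genotype in 7 of 7 clusters for Nr2f2.

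Both genes followed the noncoding gene on their opposite strand. Over the 28 wildtype sums, 1 per sample and cluster, A830082K12Rik had the pattern most like Nr2f1 among 8950 genes (r = 0.946, and 0.933 in knockout), followed by E130308A19Rik (0.934) and Slit2 (0.925), a secreted axon guidance factor. B130024G19Rik was most like Nr2f2 (r = 0.955, and 0.951 in knockout), followed by Slf1 (0.911) and Pcdh11x (0.875). These sums share libraries and depth within a sample, so the coefficients are descriptions. In cluster 6, where Nr2f2 was highest, B130024G19Rik held 99.6, 111, 111 and 90.6 CPM in wildtype and 99.4, 161, 143 and 45.3 CPM in knockout, with the lowest value again in knockout sample 4. Neither noncoding gene passed the test in any fit, with the smallest adjusted p, 0.220, for B130024G19Rik in cluster 5. Whether the authors counted by strand is not given in the sources used here, so UMIs from the shared bases cannot be assigned to 1 of the 2 genes.

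**Figure D3:**
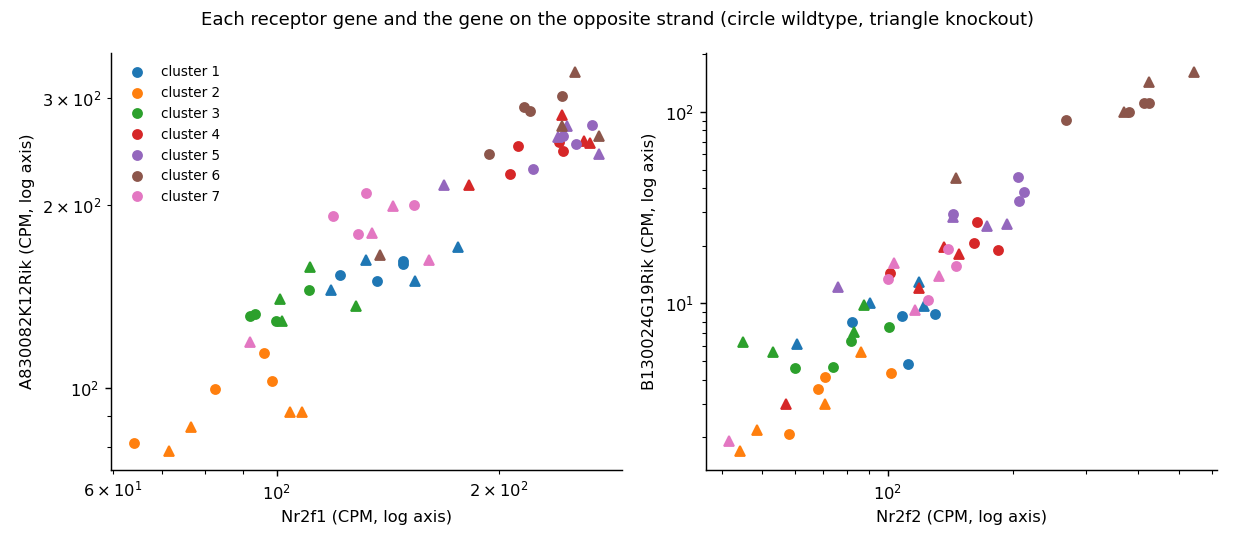
CPM of Nr2f1 against A830082K12Rik and of Nr2f2 against B130024G19Rik (log axes), with 1 symbol per sample and cluster, circles for wildtype and triangles for knockout. Both pairs rise together across clusters, and the Nr2f2 pair is highest in cluster 6.

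Within a cluster, nuclei with a UMI of Nr2f1 also held more Nr2f2. In every cluster and in all 8 samples the Nr2f2 level was higher in nuclei with than without an Nr2f1 UMI, by a median of 0.24 in cluster 2 to 0.85 in cluster 5 on the log2 scale. In cluster 5 it was 226 CPM in 3276 nuclei with Nr2f1 and 124 CPM in 4550 nuclei without. B130024G19Rik in the same way was higher in nuclei with Nr2f2 in all 8 samples of the 6 clusters with enough counts, by medians of 1.66 to 2.79. Nuclei with a UMI of a given receptor gene had 0.935 to 1.53 times the median UMIs of those without (median 1.05), and CPM takes out their depth only on average.

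Rorb and some area genes also differed by Nr2f1 UMIs, in part of the clusters. In cluster 3, Rorb was at 357 CPM in nuclei with Nr2f1 and 555 CPM in nuclei without, a median log2 ratio of -0.63 and lower in 8 of 8 samples. In cluster 1 the ratio was -0.39, lower in 8 of 8, and in cluster 4 it was 0.03, with 5 samples higher and 3 lower. Over the 7 clusters the Rorb ratio ran from -0.63 to 0.41, above 0 in 3. Efna5, an ephrin guidance ligand with graded expression in the cortex, was at 180 CPM in apical progenitor-like nuclei with Nr2f1 and 321 CPM in those without, a ratio of -0.90 and lower in 8 of 8 samples. All 8 samples were also lower in cluster 1 (-0.38), and in the other 5 clusters the ratio ran up to 0.12 with samples on both sides. Fgfr3, a fibroblast growth factor receptor, was higher in the same nuclei by 0.50, in 8 of 8 samples.

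**Figure D4:**
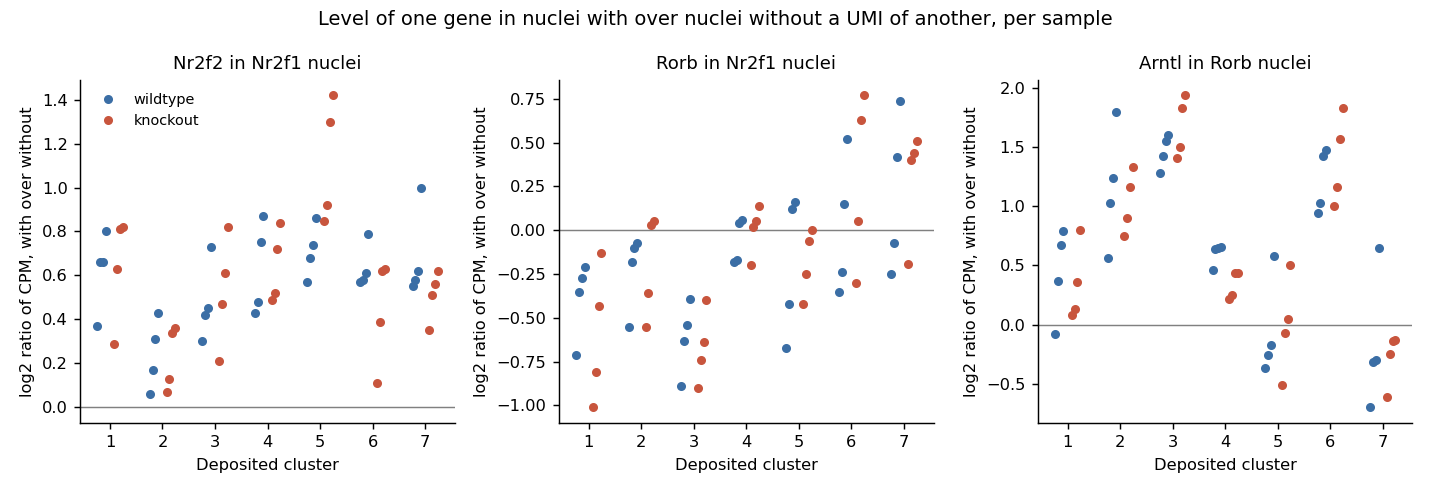
Log2 ratio of the CPM in nuclei with over nuclei without a UMI of another gene (vertical axis), by deposited cluster, with 1 point per sample, wildtype in blue and knockout in red. Nr2f2 is above 0 in Nr2f1 nuclei in every cluster and sample, Rorb is below 0 in Nr2f1 nuclei of clusters 1 and 3, and Arntl is above 0 in Rorb nuclei of clusters 2, 3, 4 and 6.

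Thrb was concentrated in the intermediate progenitor-like cluster 5, at 104 ± 11.6 CPM in wildtype, with no other cluster above 21.6 ± 3.73 CPM (cluster 4). After thinning every nucleus to 1400 UMIs, 9.62% ± 1.63 (SD, n = 4) of wildtype cluster 5 nuclei held a Thrb UMI, against 0.547% ± 0.0727 in the deep-layer-like cluster 2, the lowest share. Without thinning these shares were 13.7% and 1.02%. The 3 genes most like Thrb across the wildtype sums were Mfng, a modifier of Notch receptors (r = 0.945), Azi2 (0.937) and Cul1 (0.932), a ubiquitin ligase scaffold.

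In cluster 5 the wildtype samples held 116, 92.9, 96.1 and 112 CPM of Thrb and the knockout samples 51.4, 90.2, 60.9 and 65.3 CPM. The groups did not overlap, and 3.12% of the genes tested in that cluster had all knockout samples below all wildtype samples, but knockout sample 2 lay close to the lowest wildtype sample. The change of -0.59 ± 0.15 did not pass the edgeR threshold (adjusted p = 0.0693). It passed in 2 of 17 alternatives, DESeq2 (adjusted p = 0.0231) and without knockout sample 2 (-0.80, adjusted p = 0.00469). Over all alternatives the adjusted p ran up to 0.290. In cluster 4 the means were 21.6 and 23.8 CPM, and no other fit of Thrb passed.

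Thrb nuclei stood out from their neighbours. In cluster 4, the 563 nuclei with a Thrb UMI held 85.7 CPM of Eomes, the defining factor of intermediate progenitors, against 25.8 CPM in the 10385 nuclei without, higher in 8 of 8 samples with a median log2 ratio of 1.74. In cluster 5, the 1000 Thrb nuclei held 43.2 CPM of Lef1, a Wnt pathway factor, against 147 CPM in the rest, a ratio of -1.83 and lower in 8 of 8 samples. Reln, which encodes the secreted protein reelin, was at 35.9 against 105 CPM (-1.49), and Lhx9, a LIM homeobox factor, at 8.06 against 33.0 CPM (-1.89), each lower in 8 of 8 samples.

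Rora was highest in the apical progenitor-like cluster 4. The wildtype samples held 943, 820, 858 and 886 CPM there and the knockout samples 670, 850, 952 and 818 CPM. The groups overlapped, and the change was -0.07 ± 0.09 (adjusted p = 0.803). After thinning, 60.4% ± 0.648 of wildtype nuclei of cluster 4 held a Rora UMI, against 3.34% ± 0.569 in cluster 3, and 78.7% against 6.60% without thinning. The wildtype order went on with cluster 5 at 348 ± 8.45 CPM, clusters 6 and 1 at 215 ± 15.0 and 207 ± 11.5 CPM, cluster 7 at 139 ± 8.78 CPM, cluster 2 at 42.7 ± 2.89 CPM and cluster 3 at 31.7 ± 5.08 CPM. Of these neighbours only clusters 6 and 1 overlapped. The genes most like Rora were Sema5b, a semaphorin (r = 0.974), Specc1 (0.969) and Nr6a1, another orphan nuclear receptor (0.964).

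Rora fell in the knockout in clusters 1, 2 and 5, and did not pass the test in the apical progenitor-like cluster where it was highest. In the upper-layer-like cluster 1 the wildtype samples held 208, 200, 199 and 224 CPM and the knockout samples 130, 124, 140 and 155 CPM. The groups did not overlap, with all knockout samples lower as for 4.78% of all genes there, and the change was -0.57 ± 0.07, or 0.676-fold (adjusted p = 3.69e-04). It passed under all 18 alternatives, with values from -0.66 to -0.52. In the deep-layer-like cluster 2 the wildtype samples held 44.8, 39.3, 45.4 and 41.2 CPM and the knockout samples 30.7, 35.4, 26.6 and 33.4 CPM, again without overlap (7.73% of genes lower in this way), a change of -0.43 ± 0.10 (adjusted p = 0.0186). That call was lost without wildtype sample 1 (adjusted p = 0.0581) and without knockout sample 3 (0.0686).

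In cluster 5 the wildtype samples held 344, 338, 351 and 358 CPM and the knockout samples 277, 245, 268 and 307 CPM of Rora. The groups did not overlap, with all knockout samples lower as for 3.12% of all genes there. The change of -0.32 ± 0.08 had an adjusted p of 0.0489 that rose above the threshold in 12 of 17 alternatives, up to 0.317. In cluster 6 the wildtype samples held 232, 201, 204 and 224 CPM and the knockout samples 138, 103, 159 and 168 CPM, also without overlap (3.41% of genes). The change there was -0.60 ± 0.13 with an adjusted p of 0.0598, while the replicate block gave 0.00484. The change was -0.41 ± 0.17 for cluster 3 (adjusted p = 0.265, and 0.0208 with Xist, which marks female samples, as a covariate) and -0.08 ± 0.09 for cluster 7 (0.872).

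A test of whether the genotype difference itself differed between clusters passed for Rora (edgeR interaction, adjusted p = 0.00717) and for no other receptor gene. The adjusted p was 0.143 for Thrb, 0.184 for Rorb, 0.378 for Nr2f2 and 0.761 for Nr2f1. Of 12522 genes, 9.16% passed this test. Rora lost the call without knockout sample 2 (0.0559), wildtype sample 3 (0.0504) or wildtype sample 4 (0.0751). Over all nuclei together, which mix these clusters, Rora stood at 307, 234, 207 and 250 CPM in wildtype and 269, 257, 240 and 210 CPM in knockout, a change of -0.02 ± 0.10 (adjusted p = 0.948). Such sums alone do not tell fewer nuclei of a type from less RNA per nucleus. Cluster 4, where Rora was highest, held 4762 of 33781 wildtype and 6186 of 33538 knockout nuclei, with overlap between the samples of both genotypes. Cluster 6 held 3524 wildtype and 1955 knockout nuclei, without overlap.

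Rorb was highest in the deep-layer-like clusters. Wildtype means were 714 ± 164 CPM in cluster 2 and 545 ± 52.4 CPM in cluster 3, which overlapped, then 306 ± 88.8 CPM in cluster 6 and 229 ± 55.9 CPM in cluster 4, which overlapped, 131 and 116 ± 26.5 CPM in clusters 1 and 5, which overlapped, and 60.2 ± 17.7 CPM in cluster 7. The upper-layer-like cluster 1 was thus among the lower ones at this age. In knockout, cluster 3 at 459 ± 40.8 CPM stood above cluster 2 at 425 ± 30.1 CPM, with overlap. The genes most like Rorb were Magi3 (r = 0.934), Tshz3 (0.908), a zinc finger factor, and Mef2c (0.898), a MADS box factor.

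Rorb was lower in knockout cluster 2. The wildtype samples held 744, 896, 499 and 716 CPM and the knockout samples 449, 413, 388 and 451 CPM. The groups did not overlap (7.73% of genes lower in this way), with wildtype sample 3 nearest to the knockout samples. The change was -0.74 ± 0.13, or 0.598-fold (adjusted p = 0.00229), and it passed under all 18 alternatives, with values from -0.87 to -0.61. Over all nuclei the wildtype samples held 370, 367, 279 and 358 CPM and the knockout samples 248, 226, 215 and 275 CPM, again without overlap (7.10% of genes) and with knockout sample 4 just below wildtype sample 3. That change was -0.50 ± 0.10 (adjusted p = 0.0175). With clusters weighted to equal shares it was -0.44 (adjusted p = 0.0198), and the call was lost without wildtype sample 4 (0.0591), knockout sample 2 (0.0680) or knockout sample 3 (0.0678).

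The other clusters gave smaller or less even values for Rorb. In cluster 3 the wildtype samples held 523, 612, 489 and 558 CPM and the knockout samples 487, 502, 419 and 431 CPM, a change of -0.22 ± 0.08 (adjusted p = 0.184). In cluster 4 the wildtype samples held 201, 237, 173 and 303 CPM and the knockout samples 170, 155, 118 and 195 CPM, a change of -0.49 ± 0.17 (adjusted p = 0.158). In both clusters the groups overlapped, and in both the replicate block brought the change under the threshold (adjusted p = 0.0360 and 0.0159), as Xist as a covariate did in cluster 4 (0.0294). In cluster 1 the change was -0.24 ± 0.11 (adjusted p = 0.294), and 0.0152 without wildtype sample 3.

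**Figure D5:**
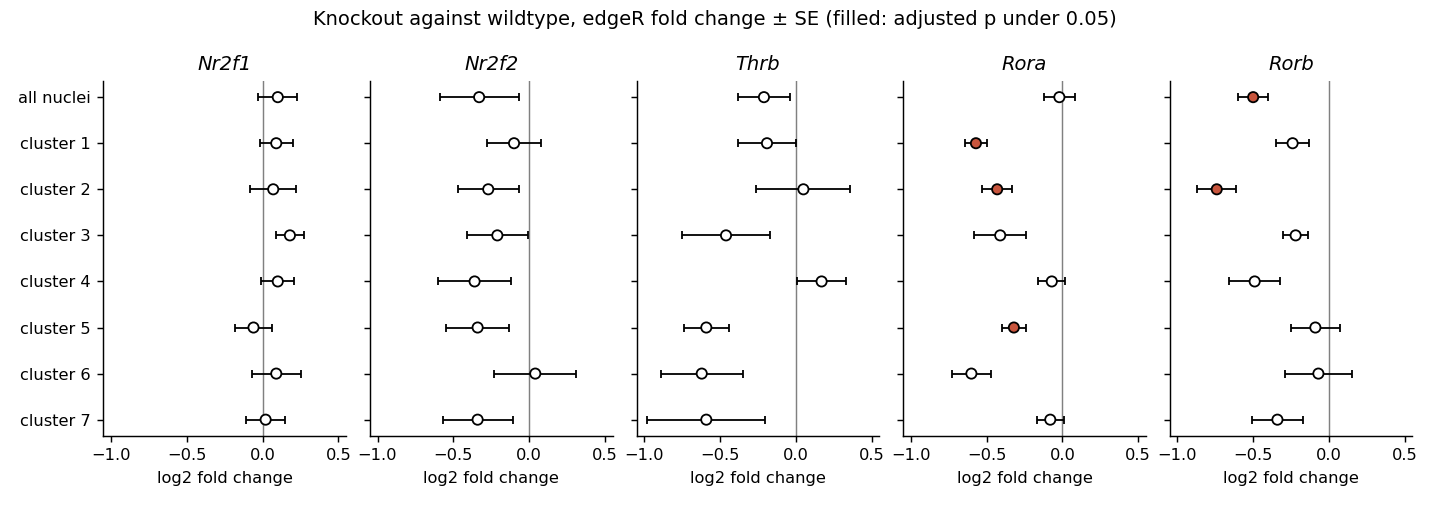
Log2 fold change of knockout over wildtype (horizontal axis) with its SE for each receptor gene, over all nuclei and in each cluster, with red filling for adjusted p under 0.05. The filled points are Rora in clusters 1, 2 and 5 and Rorb over all nuclei and in cluster 2, all below 0.

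Of the 40 tests, 5 genes in 8 fits, 5 passed, all lower in knockout, and 30 of the 40 fold changes were below 0. By gene, the change was below 0 in 7 clusters for Rora, 7 for Rorb, 6 for Nr2f2, 5 for Thrb and 1 for Nr2f1. The fit of all nuclei uses the nuclei of the clusters again, so the 40 are not separate results. The share of all genes with a change below 0 was not taken. The share of all genes called in either direction was 5.26% over all nuclei, and it was 4.84%, 9.11%, 3.36%, 4.29%, 1.77%, 0.779% and 1.03% for clusters 1 to 7. Called lower were 3.58%, 2.30%, 5.19%, 1.88%, 3.12%, 0.906%, 0.428% and 0.455% in the same order. The replicate block gave 8 calls in place of 5, DESeq2 gave 7, and leaving out single samples gave 2 to 6.

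Markers of cell type moved in clusters 1, 2 and 5, where 4.84%, 9.11% and 1.77% of all genes were called, and in other clusters too. Of 6 upper-layer markers, 4 fell in cluster 1, among them Cux1 (-0.81 ± 0.10) and Cux2 (-0.67 ± 0.11), with a list median of -0.58 against 0.00 for all genes. In cluster 2, 4 of 6 fell and 1, Mdga1, rose by 1.19, with a median of -0.85 against 0.00, and Cux1 there fell by 1.65. The summed upper-layer markers ran from 4464 to 5426 CPM in wildtype and from 3623 to 4107 CPM in knockout in cluster 1, without overlap, and from 576 to 881 against 539 to 820 CPM in cluster 2, with overlap. None of the 6 was at 0. In cluster 5 they ran from 8194 to 9592 against 6160 to 8122 CPM. Of 10 deep-layer markers, 4 rose in cluster 1, 4 in cluster 2 and 2 in cluster 5, Sox5 (0.53) and Bcl11b (0.45). Their sums did not overlap between genotypes, with 2536 to 3025 CPM in wildtype against 3781 to 5154 in cluster 1, 8186 to 9873 against 11271 to 13317 in cluster 2, and 2529 to 2738 against 3100 to 4019 in cluster 5. Deep-layer sums also did not overlap in clusters 6 and 7, where no receptor gene was called. They ran from 2326 to 2447 CPM in wildtype against 2742 to 3117 in cluster 6, and from 2909 to 3190 against 3263 to 3994 in cluster 7. In clusters 3 and 4 the deep-layer sums overlapped. For Rora in cluster 5 the part of these markers was not tested.

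In cluster 2 the Rorb call was kept without the nuclei that carried Cux1 or Cux2 UMIs, and the Rora call was lost. After removal of all cluster 2 nuclei with a UMI of Cux1 or Cux2, 63.5% to 69.4% of the nuclei of a wildtype sample and 77.0% to 80.7% of those of a knockout sample were left. Rorb then changed by -0.80 ± 0.12 (adjusted p = 6.17e-04) and Rora by -0.40 ± 0.12 (adjusted p = 0.0512). In cluster 1, removal of nuclei with Bcl11b, Fezf2 or Tle4, deep-layer factors, left a Rora change of -0.59 ± 0.12 (adjusted p = 0.00471). That removal took most nuclei, and more of the knockout. It left 26.1% to 32.6% of the cluster 1 nuclei of a wildtype sample and 12.4% to 22.7% of those of a knockout sample, at the fewest 143. These removals use genes that differ by genotype.

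Part of the interneuron list was lower in knockout as well. In cluster 1, 4 of 13 genes tested fell and none rose, where 2.30% of all genes fell. Among them were Dlx2 (-1.82 ± 0.29) and Gad2 (-1.32 ± 0.24), and the list median was -0.67. The summed list of 17 genes ran from 205 to 370 CPM in wildtype and 144 to 276 CPM in knockout cluster 1, and from 145 to 218 against 81.7 to 207 CPM in cluster 2. Without nuclei with core interneuron UMIs the 5 receptor genes again gave 5 calls. Over all nuclei, Rora passed the test without nuclei with 2 or more UMIs of the whole list (-0.26 ± 0.06, adjusted p = 0.0214). That list holds Npas3, which progenitors also express, and this removal took 86.7% to 93.8% of the nuclei of cluster 4, where Rora was highest and did not pass.

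Within the apical progenitor-like cluster 4, nuclei were split by the deposited cell cycle angle, and Thrb and Rorb varied with it. Top2a, a mitotic gene, was at 16.6 CPM at G1/G0 angles, 309 at S and 697 at G2/M. The angle was made from the RNA of the same nuclei, so this is no separate check of the split. Thrb was at 27.9 ± 5.66 CPM at G1/G0 (SD, n = 8), 26.2 ± 4.76 at S and 15.0 ± 3.98 at G2/M. These Thrb levels rest on few counts, 70, 496 and 167 UMIs over the 8 samples, and at G1/G0 on 4 UMIs in wildtype sample 3. The G2/M value was lower than G1/G0 in 8 of 8 samples, by 0.87 on the log2 scale (log2 difference -0.87 ± 0.54, exact sign-flip permutation, two-sided p = 0.00781, the smallest 8 samples can give, adjusted over 10 tests 0.0391). Rorb was at 312 ± 142 CPM at G1/G0, 187 ± 61.3 at S and 180 ± 42.7 at G2/M. The S value was lower in 8 of 8 samples (-0.67 ± 0.43, exact permutation p = 0.00781, adjusted 0.0391) and the G2/M value in 7 of 8 (-0.70 ± 0.53, p = 0.0156, adjusted 0.0521). These 8 samples pool both genotypes. At G1/G0 the wildtype samples held 331, 451, 421 and 532 CPM of Rorb and the knockout samples 220, 159, 170 and 215 CPM, without overlap. At S they held 160, 241, 162 and 310 against 166, 143, 120 and 190 CPM, with overlap. Whether the angle difference of Rorb differed by genotype was not tested.

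The other 3 receptor genes did not pass by angle. Nr2f2 was lower at S by -0.29 ± 0.27 (exact permutation p = 0.0312, adjusted 0.0781), while Nr2f1 and Rora at S and G2/M differed from G1/G0 by -0.05 to 0.17, with adjusted p from 0.221 to 0.617. The G1/G0 bin was the smallest, with 1036 of the nuclei against 5734 at S and 3634 at G2/M. It also held more markers of other classes, with summed deep-layer markers at 2861 ± 810 CPM against 2326 ± 360 at S and 2028 ± 347 at G2/M, and intermediate progenitor markers at 565 ± 73.5 against 385 ± 55.8 and 315 ± 54.7 CPM. Their part in the Thrb and Rorb values was not tested.

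Within cluster 4, Rorb was lower in nuclei with a Rora UMI. In the 8449 nuclei with a Rora UMI Rorb was at 183 CPM, and in the 2499 without it was at 238 CPM, lower in 8 of 8 samples (median log2 ratio -0.37). Rora nuclei held more Lef1 (209 against 119 CPM, 1.07) and less Ldb2, a neuronal cofactor (102 against 177 CPM, -0.81), each the same way in 8 of 8 samples. Rorb nuclei of the same cluster held 172 CPM of Hs3st4, a heparan sulfate enzyme that marks deep-layer neurons, against 66.8 CPM in the rest (1.30, 8 of 8).

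Arntl, a clock gene that Rora and Rorb are known to activate, was higher in nuclei with a Rorb UMI in 5 of 7 clusters. In cluster 3 it was at 74.1 CPM in 5147 nuclei with a Rorb UMI and 24.7 CPM in 6436 without, a median log2 ratio of 1.53, and in cluster 2 at 58.3 against 26.7 CPM (1.10). In cluster 6 the ratio was 1.30 and in cluster 4 it was 0.45, and in these 4 clusters it was above 0 in 8 of 8 samples. In cluster 1 it was 0.37 (7 of 8 samples above 0), and in clusters 5 and 7 it was -0.12 and -0.28, with 5 and 7 of 8 samples below 0. By Rora UMIs the Arntl ratio ran from -0.12 to 0.15 over the 7 clusters, in none of them with all 8 samples on 1 side. The difference between the Rora and the Rorb ratios was not tested.

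Arntl was also lower in the knockout in some clusters. It fell in cluster 4 from 97.2 to 53.6 CPM (-0.86 ± 0.09, adjusted p = 2.50e-04), in cluster 3 by 0.50 (0.00454) and over all nuclei by 0.40 (0.0107), while in cluster 2 it changed by -0.17 ± 0.11 (0.447). Of the 12 genes of the ROR and clock list that were tested in cluster 2, Itpr1, a calcium channel gene, fell by 0.74, and none rose. There 5.19% of all genes fell. In cluster 3, 2 of 12 fell, Arntl and Npas2 (-0.56 ± 0.14), where 1.88% of all genes fell. The list median was -0.06 against 0.00 for all genes. No gene of this list passed in clusters 1, 5, 6 and 7.

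Of 33 partner and coregulator genes tested over all nuclei, 3 fell and none rose, where 3.58% of all genes fell, with a median of 0.01 against 0.00. Ncoa2, a coactivator of nuclear receptors, fell over all nuclei (-0.34 ± 0.05, adjusted p = 0.00342) and in clusters 1, 2, 4, 5 and 6, by 0.29 to 0.42. Zfpm2, a cofactor known to bind COUP-TF proteins, rose in cluster 1 from 90.9 to 201 CPM (1.15 ± 0.21), and rose in clusters 2, 3 and 7 by 0.82, 0.27 and 0.43. Esrrg, an orphan receptor, fell over all nuclei by 0.46 and in clusters 2 and 3. Thra, the other thyroid hormone receptor gene, stood at 109 CPM in wildtype and 110 CPM in knockout over all nuclei (0.01 ± 0.13, adjusted p = 0.981).

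Of the genes of thyroid hormone transport and response, 1 of 12 rose and 1 fell over all nuclei, where 5.26% of all genes were called, with a median of -0.09 against 0.00. Slco1c1, a thyroid hormone transporter, fell in cluster 4 from 70.6 to 19.8 CPM (-1.91 ± 0.25, adjusted p = 8.45e-04). It is also an endothelial marker, and the summed endothelial list of 8 genes, which includes it, ran from 71.2 to 106 CPM in wildtype and from 20.9 to 41.6 CPM in knockout cluster 4, with at most 2 of the 8 genes at 0 in a sample. By its mean of 70.6 CPM, Slco1c1 made up most of the wildtype sums. The fall of the summed list is thus not separate from that of Slco1c1, and the sum without it was not taken. The summed mural list of 6 genes ran from 101 to 124 and from 76.9 to 103 CPM, and of it Pdgfrb, a pericyte receptor, fell by 1.57. Their part in the Slco1c1 change was not tested. Nrgn, a known thyroid hormone target, fell in clusters 2 and 5 from 7.27 to 1.98 and from 7.29 to 1.99 CPM, and Camk4, another, rose in clusters 1 and 2 by 0.56 and 0.61. Itga6 rose over all nuclei and in clusters 1, 2 and 3, by 0.40 to 0.94.

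The area patterning list of 35 genes, which holds none of the 5 receptor genes, moved both ways. Over all nuclei 6 rose and 3 fell, where 5.26% of all genes were called, with a median of 0.06 against 0.00. In cluster 2, 8 of 32 tested rose and 6 fell, where 9.11% of all genes were called, with a median of 0.09. Efna5 fell in cluster 2 from 397 to 225 CPM and in cluster 3 from 348 to 205 CPM. Cdh8, a cadherin with regional expression in the cortex, fell in cluster 2 from 411 to 146 CPM (-1.50 ± 0.17), and Etv5, a target of fibroblast growth factor signals, by 1.08. In cluster 4, Etv4, a gene of the same family, fell from 29.4 to 11.6 CPM (-1.39 ± 0.17) and Dmrt3, a caudomedial progenitor factor, rose from 14.9 to 23.5 CPM. Nfia and Nfib rose in clusters 1, 2, 3, 4, 5 and 7, with Nfia in cluster 2 going from 1833 to 4048 CPM.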

How the data were processed

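Nuclei of 8 samples were profiled with a 10x Genomics 3′ kit. The authors deposited UMI counts per gene and nucleus with a cluster number, a cell cycle angle and a doublet score per nucleus, and the submitters' processing notes name kallisto, bustools and mm10, with no versions. The deposited doublet score removed no nuclei here, and no doublet caller was run. How the authors treated doublets is not given in the sources used here. Positions in the deposited gene table differ from GRCm38 and were taken as GRCm39.

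For each sample the counts of all nuclei, and of each cluster, were added up and tested with edgeR 4.0.16 in R 4.3.3 (quasi-likelihood test, TMM, filterByExpr, Benjamini-Hochberg over all genes of a fit, threshold 0.05). The interaction fit had terms for sample, cluster and genotype within cluster. DESeq2 1.42.0 and the other settings of the closing section were alternatives. Markers count for a cluster where they had their highest mean level over all 8 samples, wildtype and knockout together. That level had to be at least 10 CPM and at least 1.5 times the median of the other clusters. On simulated counts with 200 genes changed by 1 on the log2 scale, 94.5% were recovered over all nuclei, 81.0% to 89.0% within clusters, and 61.5% by the interaction test for changes in 1 of 7 clusters. Shares of nuclei with a UMI were taken unthinned and after thinning to 1400 UMIs.

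Deviations from the genotype means correlated at 0.493, 0.206, 0.247 and 0.159 over 13927 genes for wildtype and knockout samples of the same number. For different numbers they ran from -0.434 to 0.379, the highest for wildtype sample 3 with knockout sample 4. The main fits had no term for the number. Only the replicate block, an alternative, took the numbers as pairs, from the data and not from a stated litter or day. The 5 genes and the lists were chosen with earlier results of these data known. Named genes are the 5, up to 4 called genes per list and fit by size of change, list genes on which a sentence turns, and the 3 most like each receptor gene among genes of at least 10 CPM. Of the receptor partner, thyroid and clock lists, 13 genes were not in the gene table. Intervals and SDs cover these samples only. Promoters came from RefSeq. An item of the marker and area lists is not reported here, and list values leave it out.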

Additional observations from a re-analysis of the deposited data

Results flagged for a closer look

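In 4 of the 80 groups of 4 samples, 1 sample lay far from the other 3 by Dixon's test of its gap to the nearest of them, and chance alone gives this in about 1 of 20 groups. Nr2f2 in cluster 5 was 144 CPM in wildtype sample 4, below the other 3 at 205 to 213 CPM. Thrb in cluster 3 was 3.15 CPM in wildtype sample 3, a level of few UMIs. Rorb over all nuclei was 279 CPM in wildtype sample 3, the wildtype sample nearest to the knockout samples. Rorb in cluster 6 was 437 CPM in knockout sample 4, above the other 3 at 231 to 254 CPM.

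The genotype difference of Rora differed between the 7 clusters by the interaction test (edgeR, adjusted p = 0.00717), with fold changes from -0.60 in cluster 6 to -0.07 in cluster 4 on the log2 scale. The call was lost without knockout sample 2, wildtype sample 3 or wildtype sample 4.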

How the results depend on the processing

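Of the values of the 40 receptor gene tests under the alternatives, 604 kept their direction and side of the threshold, 12 newly passed, 18 lost the call and 34 changed sign, in none of which the value passed the test before or after. With the replicate number as a block (paired samples), the called genes were 1344 over all nuclei in place of 732, 652 in cluster 3 (400), 253 in cluster 6 (82) and 255 in cluster 7 (109), and 8 receptor gene tests passed in place of 5. DESeq2 called 1217 genes over all nuclei and clusters weighted to equal shares 1127. Removing nuclei gave 199 calls in cluster 1 without Bcl11b, Fezf2 or Tle4 nuclei and 20 in cluster 4 and 46 in cluster 6 without nuclei of the interneuron list, a removal that took 86.7% to 93.8% of the cluster 4 nuclei of a sample. In that last setting, on the few cluster 4 nuclei left, the angle difference of Thrb at G2/M was -1.93 ± 4.56 (SD) and that of Rorb at S was -0.22 ± 1.20 (exact permutation, adjusted p = 0.645 and 0.826), those of Nr2f1 at G2/M (-0.34), Nr2f2 at S (0.09) and Rora at S (-0.01) changed sign, as did the fold changes of Rora in cluster 4 (0.02) and Rorb in cluster 5 (0.01), and Thrb fell under the low-count filter in clusters 4 and 6. The sign also changed for Nr2f2 in cluster 1 without Bcl11b, Fezf2 or Tle4 nuclei (0.06) and in cluster 6 with the replicate block (-0.06), and for Thrb in cluster 2 with Xist as a covariate (-0.01) and without core interneuron nuclei (-0.17). Xist as a covariate brought Rora in cluster 3 (adjusted p = 0.0208) and Rorb in cluster 4 (0.0294) under the threshold. Beyond the nuclei and samples taken out, the cause of these shifts was not tested. The removals by single genes, the equal shares and leaving out the pair numbered 4 were chosen after seeing the data.

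Leaving out single samples gave 263 to 994 called genes over all nuclei, 335 to 647, 738 to 1074, 192 to 438, 316 to 534, 101 to 189, 51 to 148 and 63 to 142 in clusters 1 to 7, and 2 to 6 receptor gene calls (3 without wildtype sample 1 or wildtype sample 4, 2 without knockout sample 3). Without the pair numbered 4, cluster 5 had 117 calls. The interaction called 682 to 1165 genes, with adjusted p for Rora from 0.00186 to 0.0751. The angle differences ran from -0.98 to -0.76 for Thrb at G2/M and from -0.74 to -0.56 for Rorb at S, with adjusted p from 0.0521 to 0.0781 for both (exact sign-flip permutation). Neither passed with 7 samples. The smallest p that 7 samples can give is larger than with 8, and adjusted over 10 tests it passes only if several tests reach it. The lost calls therefore do not show that these differences rest on single samples. The ranges that crossed 0 were those of Nr2f1 over all nuclei (-0.01 to 0.21) and in cluster 2 (-0.04 to 0.17), cluster 5 (-0.13 to 0.06), cluster 6 (0.00 to 0.25) and cluster 7 (-0.06 to 0.16), of Nr2f2 in cluster 1 (-0.23 to 0.06) and cluster 6 (-0.20 to 0.29), of Thrb in cluster 2 (-0.18 to 0.29), of Rora over all nuclei (-0.08 to 0.08) and in cluster 4 (-0.14 to 0.02), of Rorb in cluster 5 (-0.22 to 0.06) and cluster 6 (-0.33 to 0.10), and of the S angle difference of Nr2f1 (-0.10 to 0.01) and Thrb (-0.18 to 0.00). Thrb, with a few CPM in clusters 2, 3 and 7, is the gene most limited by depth.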

Other observations

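Epha3, an ephrin receptor gene, was higher in nuclei with an Nr2f1 UMI than in those without in 6 of 7 clusters, with all 8 samples on that side in 5 of them and median log2 ratios from -0.13 to 0.50. In nuclei with an Nr2f2 UMI it was higher in 6 of 7 clusters, in all 8 samples in 4 of them, with medians from -0.32 to 0.52. Hs3st4, the deep-layer enzyme gene, had the opposite sides for Rorb and Nr2f1. It was higher in Rorb nuclei in 7 of 7 clusters (all 8 samples in 5, medians from 0.51 to 1.86), and its median was below 0 in Nr2f1 nuclei in 7 of 7 (all 8 samples lower in 3, from -0.65 to -0.13). A830082K12Rik, opposite to Nr2f1, was lower in Rorb nuclei in all 8 samples of 3 clusters, with medians down to -0.95. These ratios compare nuclei of the same libraries and have no test.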
